A study of Sus scrofa with 9 samples.

Results

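The border zone of a myocardial infarct is the strip of living muscle that adjoins the tissue that has lost its blood supply. Nascent transcription was compared here between border zone and healthy myocardium of the same 3 pigs. The comparison covers 2104 genes of the 3952 in the deposited table: those with a mean of at least 0.5 RPKM (reads per kilobase of gene, scaled to the reads of the library) over the 9 libraries, with each gene represented by its longest listed position. All animals were female farm pigs in which a coil had been placed by catheter in the distal left anterior descending artery, and tissue was taken 24 h later. The border zone group holds 3 libraries, 1 from each of pigs 1, 2 and 3, and the healthy group holds 3 libraries from the same animals. A further 3 libraries of ischemic tissue, also 1 per pig, enter the estimate of the spread. No sham-operated animals were analysed here. The healthy tissue therefore carried the same catheterization, anesthesia and an infarct elsewhere in the heart, and every sample was digested with collagenase before nuclei were isolated. Strain and age were not given in the sources used here.

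In global run-on sequencing (GRO-seq), engaged RNA polymerases extend their transcripts in isolated nuclei with a labelled nucleotide, and the labelled RNA is captured and sequenced. It therefore reads transcription in progress over exons and introns rather than the stock of messenger RNA. After coronary occlusion, injured myocardium is known to release signals that act on Toll-like receptors, to recruit neutrophils and then monocytes through chemokines, and to lower the use of fatty acids in the surviving muscle. The heart muscle cell depends on oxidative metabolism and on calcium cycling through the sarcoplasmic reticulum.

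The libraries held between 2187977 and 7005976 reads in the healthy and border zone groups and between 883656 and 2134087 in the ischemic group, and a gene tested had a median of 43 to 145 reads per healthy or border zone library. Correlations of log2 values ran from 0.759 to 0.796 among healthy libraries, from 0.743 to 0.763 among border zone libraries, and from 0.575 to 0.763 between the groups. Border zone replicate 2 stood nearest to the healthy group (0.730 to 0.763), against 0.575 to 0.641 for border zone replicates 1 and 3. The label of heart muscle held in every library: MYH7, the slow myosin heavy chain of the ventricle, read 207, 137 and 109.9 RPKM in healthy tissue, 59.2, 89.8 and 49.3 in the border zone and 64.8, 94.1 and 25.8 in ischemic tissue. Triplets of values are given throughout in the order of pigs 1, 2 and 3. Because the samples are bulk tissue, a change in the number of cells of a type and a change in transcription per cell cannot be told apart.

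Most genes called in the border zone had more nascent transcription there than in healthy myocardium. At an adjusted p under 0.05 (limma on log2(RPKM + 0.1) with pig as a block, Benjamini-Hochberg over 2384 positions), 178 genes rose (8.46% of those tested) and 11 fell (0.523%), or 8.98% in both directions. Genes at an unadjusted p under 0.05 numbered 537, of which 432 were higher and 105 lower (25.5% together). The median fold of the genes that rose was 3.9, on the log2(RPKM + 0.1) scale, and 90 of them had a healthy mean under 0.5 RPKM, as had 307 of all genes tested, so that these passed the filter through the injured zones. Of those 307 genes 29.3% rose, and of the 1797 with a healthy mean of at least 0.5 RPKM 4.9% rose. The genes that fell did so by 1.8-fold to 2.84-fold. All 189 had 1 sign in 3 of 3 pigs. Among the gene lists of pathways and cell types in which 0 genes fell, 0 to 8 members a list were lower at an unadjusted p under 0.05, and limma-voom called 0 to 7 lower. For 169 of the 178 and all 11 of the lower genes the 2 groups did not overlap, where 26.6% of all genes lay wholly higher and 6.89% wholly lower. Called genes were selected on these same values, so their lack of overlap, here and below, is a description and no further test.

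The balance of rises and falls depended on the scaling of the libraries. Over all genes the median log2 fold change was 0.215, with 1346 positive and 758 negative values, and scaling the libraries to 1 median moved it by 0.258. Higher genes made up 94.2% of the calls as deposited, 81.1% with median scaling (120 higher, 28 lower), 78% with quantile normalization (99 higher, 28 lower) and 79.7% with limma-voom on the recovered reads (369 higher, 94 lower). All 189 genes were also called by limma-voom, as were 23 of 31 genes named here as not called. Without the pig block 130 genes rose and 3 fell.

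Single libraries weighed heavily on these counts. Leaving out border zone replicate 1 left 17 higher genes and 0 lower genes (362 at an unadjusted p under 0.05), and leaving out border zone replicate 2 left 55 and 2. Without border zone replicate 3 the counts were 41 and 0 (377 unadjusted), without healthy replicate 1 they were 75 and 0 (381 unadjusted), and without healthy replicate 3 they were 71 and 0 (414 unadjusted). Healthy replicate 2 had less weight, with 145 higher and 15 lower genes left. The ischemic libraries enter through the spread: the counts were 133 and 5 without the first, 172 and 8 without the second, and 152 and 8 without the third. The 17 genes called in every one of these 9 fits, all higher, include IL1B, IL1A, ARG1, GPR84, S100A12, SLC11A1, CCR1, SPP1, TREM1, ICAM1, CDA, TAGAP, AREG, HBEGF, RUNX1 and LDHA.

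**Figure D1:**
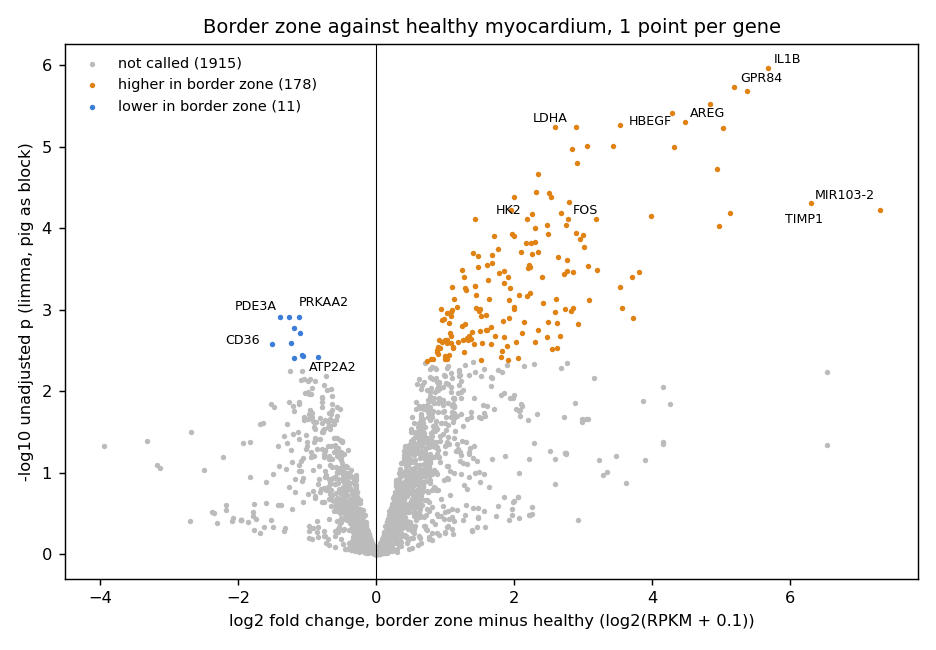
Log2 fold change of border zone against healthy (x axis) and −log10 of the unadjusted limma p (y axis) for each of 2104 genes, with 178 called higher genes in orange, 11 called lower genes in blue and 1915 genes not called in grey. The called genes lie mostly on the right, and the largest rises, IL1B and GPR84 among them, are far larger than the falls.

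Cytokine genes were among the largest rises. The cytokine and chemokine list also holds receptors (IL1R2, IL4R, IL6R), inflammasome genes (NLRP3, CASP1) and prostaglandin synthases (PTGS2, PTGES). Of these, IL1R2, NLRP3 and PTGS2 are counted among the rises, and IL1B2, described below, is not in the list. The table lists 42 genes of the list and 24 of them were tested. Of these 24, 15 rose and 0 fell. Because 14 of the 24 had a healthy mean under 0.5 RPKM and so passed the filter only through the injured zones, this count and the median log2 fold change of 2.51 (0.21 over all genes) were favoured by the filter. Of those 14 genes 10 rose (29.3% of all such genes), as did 5 of the other 10 (4.9% of all such genes). IL1B, which encodes the inflammasome-processed cytokine interleukin 1 beta (chr3:45319296-45326287, a gene span on the susScr3 build), read 0.262, 0.167 and 0.197 RPKM in healthy tissue and 16.2, 11.7 and 19.9 in the border zone (log2 fold change 5.68 ± 0.30 SE, adjusted p = 0.00142). IL1A, its neighbour and the alarmin form of interleukin 1 (chr3:45453545-45465557), read 0.152, 0.194 and 0.166 RPKM in healthy tissue and 12.7, 5.25 and 9.74 in the border zone (log2 fold change 5.02 ± 0.36 SE, adjusted p = 0.00142). Every border zone library exceeded every healthy one by more than an order of magnitude for both genes. IL1B2, a porcine copy near IL1B, had 0 reads in healthy tissue and 98, 127 and 46 in the border zone (at least 89.9-fold higher, with 3 reads over the healthy group as the floor, adjusted p = 0.00559), and reads of the 2 near-identical genes may be shared between them. Without healthy replicate 3, the deepest healthy library, this bound was 43.6-fold. A receptor gene and a sensor of this pathway rose as well: IL1R2, the decoy receptor, by 2.85 ± 0.48 SE (adjusted p = 0.0207) and NLRP3, the inflammasome scaffold, by 2.63 ± 0.34 SE (adjusted p = 0.00958), both on the log2 scale.

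The neutrophil attractant CXCL8 (interleukin 8) reached the highest level of the called cytokine genes named here, at 0.797, 2.72 and 1.57 RPKM in healthy tissue and 74.2, 33.5 and 51.7 in the border zone (log2 fold change 4.97 ± 0.56 SE, adjusted p = 0.00625). CXCL2, a related attractant, read 2.32, 3.24 and 3.81 RPKM in healthy tissue and 20.3, 16.2 and 16.2 in the border zone (adjusted p = 0.00625). The monocyte attractant CCL2 read 4.43, 1.23 and 1.21 RPKM in healthy tissue and 22.8, 7.96 and 13.2 in the border zone (log2 fold change 2.76 ± 0.39 SE, adjusted p = 0.0113), and its highest healthy value, in pig 1, stayed below the lowest border zone value. CCL4, another attractant of this class, was not called (log2 fold change 3.22 ± 1.45 SE, adjusted p = 0.239), with 0.277, 0.663 and 0.116 RPKM in healthy tissue and 4.26, 1.94 and 5.54 in the border zone. LIF, a cytokine of the IL6 family, had no read in healthy tissue and 33, 18 and 4 reads in the border zone (at least 18.3-fold higher, adjusted p = 0.012). The bound of LIF was 8.86-fold without healthy replicate 3 and 10.1-fold without border zone replicate 1. IL6 itself rested on few reads, 0, 0 and 3 in healthy tissue and 10, 15 and 8 in the border zone, a ratio of 11 (exact 95% counting interval 3.44 to 55.8) (adjusted p = 0.0402). All 3 healthy IL6 reads came from healthy replicate 3, without which IL6 was at least 5.31-fold higher. Another listed position without a symbol adjoins IL6, and reads could be divided between them. IL10, an anti-inflammatory cytokine, read 0.394, 0 and 0.329 RPKM in healthy tissue and 2.3, 1.01 and 2.36 in the border zone (adjusted p = 0.0104). PTGS2, the inducible prostaglandin synthase, read 0.379, 0.571 and 0.247 RPKM in healthy tissue and 1.81, 1.71 and 1.84 in the border zone (log2 fold change 1.97 ± 0.23 SE, adjusted p = 0.00697). In none of the 12 called genes did the groups overlap. Of the 12 called genes named here, IL1B and IL1A kept the call in all 9 fits that each left out 1 library, and IL6 lost it in all 9. The calls lost numbered 10, 5 and 5 without border zone replicates 1, 2 and 3 in turn (adjusted p 0.0522 to 0.203). There were 3, 1 and 3 without healthy replicates 1, 2 and 3 in turn (adjusted p 0.0595 to 0.116) and 1, 1 and 1 without ischemic replicates 1, 2 and 3 in turn (adjusted p 0.053 to 0.0709). The list count of 15 was 2 without border zone replicate 1, 6 without border zone replicate 3, 7 without border zone replicate 2 and 8 without healthy replicate 1.

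Genes that mark myeloid leukocytes were also among those that rose. Of the macrophage and monocyte markers, 10 of 18 tested rose and 0 fell (26 are in the table, median log2 fold change 2.11), and of the neutrophil markers 4 of 7 rose and 0 fell (12 in the table, median 2.98, or 2.73 with the 4 genes that had no healthy read set at their lower bound). The healthy mean was under 0.5 RPKM for 11 of the 18 macrophage genes and for all 7 neutrophil genes, which passed the filter only through the injured zones, so these counts and medians were favoured by the filter. The macrophage genes that rose were 8 of those 11 (29.3% of all such genes) and 2 of the other 7 (4.9% of all such genes). For the neutrophil count of 4 of 7 the matching share is likewise 29.3%. The summed level of the macrophage list was 8.67 to 13.9 RPKM in healthy tissue and 38.3 to 58.7 in the border zone, and that of the neutrophil list 0.33 to 1.15 and 9.62 to 19.5. Both sums were thus higher in the border zone, as were the called cytokine genes above, and the part of these cells in those rises was not tested. In healthy tissue the macrophage markers CD163, FCGR3A and TREM2 and the neutrophil markers GPR84, MMP9, NPG1, S100A12, S100A8 and S100A9 had no read. Of these, CD163, FCGR3A, TREM2 and NPG1 had no read in the border zone either. The neutrophil marker PGLYRP1, which had reads in healthy tissue, had none in the border zone.

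ARG1, the arginase of alternatively activated macrophages, read 0.189, 0 and 0 RPKM in healthy tissue and 9.05, 3.76 and 5.7 in the border zone (log2 fold change 5.37 ± 0.32 SE, adjusted p = 0.00142). GPR84, a receptor for medium-chain fatty acids on myeloid cells, had no healthy read and 32, 30 and 11 border zone reads (at least 24.2-fold higher, adjusted p = 0.00142). S100A12, a calcium-binding protein of granulocytes, had no healthy read and 19, 16 and 11 in the border zone (at least 15.3-fold higher, adjusted p = 0.00282). The pattern of near silence in healthy tissue and a few RPKM in all border zone libraries was shared by SLC11A1, a metal transporter of the phagosome (at least 17.9-fold higher, border zone 3.83, 2.31 and 2.37 RPKM, adjusted p = 0.00142). FCN1, a lectin of monocytes, had 1 read in the healthy group and 130 in the border zone, a ratio of 129 (exact 95% counting interval 22.8 to 5151, adjusted p = 0.00559). Its healthy read came from replicate 3, without which FCN1 was at least 20.9-fold higher, and the bounds of GPR84, S100A12 and SLC11A1 were then 11.8-fold, 7.41-fold and 8.69-fold. SPP1, which encodes the matrix protein and macrophage product osteopontin, read 0.049, 0.117 and 0.205 RPKM in healthy tissue and 3.77, 6.43 and 2.93 in the border zone (log2 fold change 4.31 ± 0.33 SE, adjusted p = 0.00185), with pig 2 the highest in the border zone. The chemokine receptors CCR1, CCR2 and CXCR4 rose on the log2 scale by 4.28 ± 0.28, 3.01 ± 0.38 and 3.80 ± 0.54 SE (adjusted p = 0.00142, 0.00844 and 0.0113). TREM1, an amplifier of the myeloid response, and LYZ, lysozyme, rose on the log2 scale by 3.06 ± 0.23 and 3.55 ± 0.61 SE (adjusted p = 0.00185 and 0.0207). S100A8, a major granulocyte alarmin, was not called (adjusted p = 0.129): it had 8, 12 and 0 reads in the border zone libraries and 0 in healthy ones, and it passed without border zone replicate 3 (adjusted p = 0.00623). In each called gene of this group every border zone value lay above every healthy one. Among 11 called genes in this group, ARG1, GPR84, S100A12, SLC11A1, CCR1, SPP1 and TREM1 kept the call in all 9 fits that each left out 1 library. Calls that ended were 4, 3 and 4 without border zone replicates 1, 2 and 3 in turn (adjusted p 0.0509 to 0.104). Others lost were 1 and 2 without healthy replicates 2 and 3 in turn (adjusted p 0.0569 to 0.0589). A fit with no pig block lost LYZ (adjusted p 0.0584). The macrophage count of 10 was 3 without border zone replicate 1, 5 without border zone replicate 3 and 6 without border zone replicate 2.

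**Figure D2:**
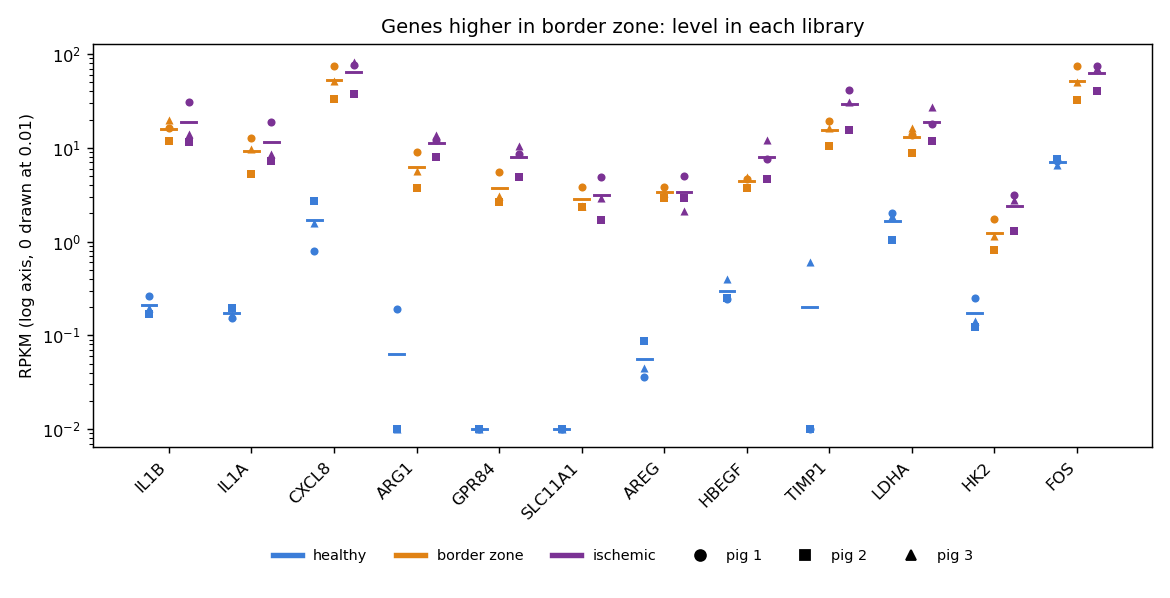
RPKM of 12 called genes in each of the 9 libraries (log axis, values of 0 drawn at 0.01), with 1 marker shape per pig and a bar at the group mean. For each gene shown, the 3 border zone libraries (orange) lie above the 3 healthy libraries (blue).

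Receptors and signal carriers of innate immunity rose in part. Of 21 tested genes of the NF-kB and Toll-like receptor list 7 rose and 0 fell, with a median log2 fold change of 1.4 (0.79 with quantile normalization). Of the 21, 9 passed the filter only through the injured zones, and 5 of these rose (29.3% of all such genes). Of the other 12, 2 rose (4.9% of all such genes). TLR4, the receptor for endotoxin and for ligands released from injured cells, read 0.325, 0.323 and 0.203 RPKM in healthy tissue and 3.59, 1.77 and 3.9 in the border zone (log2 fold change 2.99 ± 0.35 SE, adjusted p = 0.00697). Its co-receptor CD14 read 1.33, 0.531 and 0.278 RPKM in healthy tissue and 9.39, 3.81 and 6.92 in the border zone (log2 fold change 3.19 ± 0.45 SE, adjusted p = 0.0113). TLR6 and the adaptor MYD88 rose on the log2 scale by 2.61 ± 0.48 and 2.00 ± 0.34 SE (adjusted p = 0.0259 and 0.0207). TNFAIP3, the A20 feedback inhibitor of NF-kB, read 0.441, 0.909 and 0.63 RPKM in healthy tissue and 7.69, 3.15 and 5.37 in the border zone (adjusted p = 0.0211). NFKBIA, the inhibitor IkB alpha, was not called (log2 fold change 2.02 ± 0.62 SE, adjusted p = 0.107), with 3.89, 13.3 and 3.37 RPKM in healthy tissue and 33, 17.4 and 21.2 in the border zone, and passed without healthy replicate 2 (adjusted p = 0.0102). ICAM1, the adhesion molecule through which leukocytes leave vessels, read 0.518, 0.138 and 0.347 RPKM in healthy tissue and 3.19, 1.01 and 2.24 in the border zone (log2 fold change 2.34 ± 0.21 SE, adjusted p = 0.00308). NCF1, a subunit of the phagocyte oxidase, which makes superoxide, rose on the log2 scale by 2.90 ± 0.34 SE (adjusted p = 0.00697), and GP91-PHOX, its membrane subunit, was not called (log2 fold change 1.90 ± 0.44 SE, adjusted p = 0.0542), but passed without healthy replicate 2 (adjusted p = 0.0172). A list of antigen presentation genes was made after their values had been seen. Of 16 tested swine leukocyte antigen and antigen presentation genes 7 rose and 0 fell. All 7 are among the 15 with a healthy mean of at least 0.5 RPKM (4.9% of all such genes rose). SLA-DQA1 of class II read 2.33, 1.4 and 1.71 RPKM in healthy tissue and 6.44, 6.35 and 9.9 in the border zone (adjusted p = 0.0207). SLA-DRB1 rose on the log2 scale by 1.47 ± 0.20 SE (adjusted p = 0.0112), and SLA-2 of class I by 1.12 ± 0.24 SE (adjusted p = 0.0388). These genes have close paralogs, between which reads may be divided. The groups did not overlap in any called gene named here. Of these 10 called genes, ICAM1 kept the call in all 9 fits that each left out 1 library. Lost calls came to 9, 5 and 8 without border zone replicates 1, 2 and 3 in turn (adjusted p 0.0504 to 0.193). Likewise lost were 4 and 5 without healthy replicates 1 and 3 in turn (adjusted p 0.0569 to 0.165) and 2 and 1 without ischemic replicates 1 and 3 in turn (adjusted p 0.0552 to 0.0727). TLR6, SLA-DRB1 and SLA-2 did not pass without the pig block (adjusted p 0.068 to 0.191). The NF-kB count of 7 was 1 without border zone replicate 1 or 3, 3 without healthy replicate 3 and 4 without healthy replicate 1 or border zone replicate 2, and the antigen count of 7 was 0 without border zone replicate 1, 2 or 3, 1 without healthy replicate 1 or 3, 3 without ischemic replicate 1 and 2 without the pig block.

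Ligands of the epidermal growth factor receptor rose as well. AREG, which encodes amphiregulin (chr8:74568826-74579002), read 0.036, 0.086 and 0.0451 RPKM in healthy tissue and 3.79, 2.89 and 3.32 in the border zone (log2 fold change 4.47 ± 0.31 SE, adjusted p = 0.00142). HBEGF, the heparin-binding ligand (chr2:148047629-148058091), read 0.245, 0.251 and 0.395 RPKM in healthy tissue and 4.68, 3.77 and 4.85 in the border zone (log2 fold change 3.53 ± 0.25 SE, adjusted p = 0.00142). Of the 4 tested genes of that list these 2 rose and 0 fell, and both calls held without any 1 library. Both ligand genes had a healthy mean under 0.5 RPKM and passed the filter only through the injured zones, so this count was favoured by the filter. Of all such genes 29.3% rose. ADAM17, the protease that sheds such ligands from the cell surface, was not called (log2 fold change 1.04 ± 0.27 SE, adjusted p = 0.0735). Of the list of matrix proteases, their inhibitors and the plasminogen system 6 of 14 tested genes rose and 0 fell, with a median log2 fold change of 1.29 (0.85 with quantile normalization). Of the 2 that passed the filter only through the injured zones 1 rose (29.3% of all such genes). Of the other 12, 5 rose (4.9% of all such genes). TIMP1, an inhibitor of matrix metalloproteases, had the largest called rise of a protein-coding gene on the log2(RPKM + 0.1) scale. It read 0, 0 and 0.606 RPKM in healthy tissue and 19.3, 10.5 and 16.4 in the border zone (log2 fold change 6.29 ± 0.63 SE, adjusted p = 0.00506), and all 12 healthy reads came from pig 3. TIMP2, a related inhibitor, read 0.914, 0.441 and 0.771 RPKM in healthy tissue and 2.5, 1.9 and 2.47 in the border zone (adjusted p = 0.0111). The lysosomal proteases CTSB, CTSH and CTSZ rose on the log2 scale by 2.10 ± 0.27, 2.00 ± 0.20 and 1.85 ± 0.26 SE (adjusted p = 0.00915, 0.00476 and 0.0113), and PLAT, tissue plasminogen activator, by 1.10 ± 0.19 SE (adjusted p = 0.021). Of the matrix genes, VCAN (versican) read 0.354, 0.633 and 0.395 RPKM in healthy tissue and 1.92, 1.5 and 2.56 in the border zone (adjusted p = 0.012). TNC (tenascin C) read 0.0297, 0.0516 and 0.113 RPKM in healthy tissue and 0.548, 0.586 and 0.67 in the border zone (adjusted p = 0.0307). The fibrillar collagens of scar were not called: COL3A1 read 3.52, 3.12 and 2.31 RPKM in healthy tissue and 4.37, 4.22 and 5.11 in the border zone (log2 fold change 0.61 ± 0.24 SE, adjusted p = 0.182). COL1A2 read 2.58, 2.43 and 1.68 RPKM in healthy tissue and 2.73, 2.74 and 2.9 in the border zone (adjusted p = 0.382). RUNX1, a transcription factor of blood cells and of injured heart muscle, read 0.352, 0.384 and 0.565 RPKM in healthy tissue and 5.12, 2.68 and 4.13 in the border zone (log2 fold change 2.91 ± 0.24 SE, adjusted p = 0.00256). TGFB1, a driver of fibrosis, read 1.72, 0.938 and 0.994 RPKM in healthy tissue and 4.13, 2.72 and 2.2 in the border zone (adjusted p = 0.0113). No overlap of the groups was seen in the called genes. Of the 12 called genes named here, AREG, HBEGF and RUNX1 kept the call in all 9 fits that each left out 1 library. TNC lost it in all 9. The threshold was missed by 9, 6 and 7 without border zone replicates 1, 2 and 3 in turn (adjusted p 0.0521 to 0.175). Also ended were 5, 2 and 5 without healthy replicates 1, 2 and 3 in turn (adjusted p 0.0527 to 0.10) and 1, 1 and 1 without ischemic replicates 1, 2 and 3 in turn (adjusted p 0.0651 to 0.0764). Without the pig block, TGFB1 missed the threshold (adjusted p 0.108). The protease count of 6 was 0 without border zone replicate 1, 2 without border zone replicate 2 or 3 and 3 without healthy replicate 3.

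The lactate dehydrogenase isozymes moved in opposite directions. LDHA, the isozyme of anaerobic tissue (chr2:43898284-43909453), read 2.03, 1.05 and 1.89 RPKM in healthy tissue and 13.8, 8.87 and 16.1 in the border zone (log2 fold change 2.90 ± 0.20 SE, adjusted p = 0.00142). LDHB, the isozyme of heart muscle (chr5:55086961-55107296), read 20.3, 15 and 8.41 RPKM in healthy tissue and 7.17, 8.05 and 4.27 in the border zone (log2 fold change -1.11 ± 0.22 SE, adjusted p = 0.0307). The groups did not overlap for either gene. HK2, the inducible hexokinase, read 0.247, 0.123 and 0.144 RPKM in healthy tissue and 1.73, 0.807 and 1.15 in the border zone (log2 fold change 2.26 ± 0.24 SE, adjusted p = 0.00559), while PFKM, the muscle phosphofructokinase, was not called (log2 fold change -1.09 ± 0.28 SE, adjusted p = 0.068). Of 18 tested glycolysis genes 2 rose and 1 fell, LDHA, HK2 and LDHB. Over all genes tested 8.46% rose and 0.523% fell, and this small count is given as a description. Of 11 tested genes of the hypoxia list 5 rose and 0 fell, LDHA and HK2 among them, with a median log2 fold change of 1.00. HK2 passed the filter only through the injured zones. Of the other 10, 4 rose (4.9% of all genes with a healthy mean of at least 0.5 RPKM). HIF1A, the oxygen-sensitive transcription factor, read 0.958, 1.35 and 1.34 RPKM in healthy tissue and 2.84, 2.44 and 2.28 in the border zone (log2 fold change 1.00 ± 0.22 SE, adjusted p = 0.0452). ADM, the vasodilator adrenomedullin, read 2.71, 0.762 and 2.86 RPKM in healthy tissue and 6.12, 3.29 and 5.17 in the border zone (log2 fold change 1.32 ± 0.26 SE, adjusted p = 0.0342). P4HA1, a collagen hydroxylase, read 0.741, 0.728 and 1.11 RPKM in healthy tissue and 1.78, 1.31 and 2.31 in the border zone (log2 fold change 0.98 ± 0.18 SE, adjusted p = 0.0239). The hypoxia targets VEGFA and DDIT4 were not called (log2 fold changes 0.57 ± 0.24 and 1.01 ± 0.36 SE, adjusted p = 0.20 and 0.149), though DDIT4 passed without healthy replicate 2 (adjusted p = 0.0416). Among 6 called genes in this group, LDHA kept the call in all 9 fits that each left out 1 library. HIF1A and ADM lost it in all 9, and LDHB kept it only without healthy replicate 2 or ischemic replicate 2. No longer called were 5, 4 and 4 without border zone replicates 1, 2 and 3 in turn (adjusted p 0.054 to 0.196). Further losses were 4, 2 and 4 without healthy replicates 1, 2 and 3 in turn (adjusted p 0.0569 to 0.169) and 3, 2 and 3 without ischemic replicates 1, 2 and 3 in turn (adjusted p 0.0512 to 0.0786). A fit with no pig block lost LDHB, ADM and P4HA1 (adjusted p 0.121 to 0.197). The glycolysis count of 2 rises was 1 without border zone replicate 1. The hypoxia count of 5 was 1 without border zone replicate 1, 2 without healthy replicate 1 or 3 or border zone replicate 2 or 3, 3 without ischemic replicate 1, 2 or 3 and 3 without the pig block.

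Immediate early genes, which are switched on without new protein synthesis, responded unevenly. Of 16 tested, 5 rose and 0 fell, with a median log2 fold change of 0.97. All 16 had a healthy mean of at least 0.5 RPKM, and of all such genes 4.9% rose. FOS, a subunit of the AP-1 transcription factor (chr7:104293828-104296291), read 7.29, 7.58 and 6.53 RPKM in healthy tissue and 74.1, 32.3 and 49.9 in the border zone (log2 fold change 2.77 ± 0.30 SE, adjusted p = 0.00559). Its partner JUN was not called, at 32.4, 27 and 28.7 RPKM in healthy tissue and 24.9, 22.3 and 28 in the border zone (log2 fold change -0.23 ± 0.28 SE, adjusted p = 0.673), and the groups overlapped. NR4A2, an orphan nuclear receptor, and MYC, a growth regulator, rose on the log2 scale by 2.49 ± 0.46 and 1.44 ± 0.25 SE (adjusted p = 0.0252 and 0.0207). The antiproliferative genes BTG1 and BTG2 rose on the log2 scale by 1.89 ± 0.40 and 1.28 ± 0.24 SE (adjusted p = 0.0377 and 0.0264), and the phosphatase DUSP1, a MAP kinase inhibitor, was not called (log2 fold change 0.96 ± 0.35 SE, adjusted p = 0.159). Stress lists held few calls, where 8.46% of all genes tested rose, and their counts are given as a description. Of 12 tested genes of the unfolded protein response 1 rose, the chaperone CALR (log2 fold change 1.02 ± 0.23 SE, adjusted p = 0.0479), whose groups overlapped. Of 15 tested antioxidant genes GPX1, glutathione peroxidase, and FTH1, the ferritin heavy chain, rose on the log2 scale by 2.49 ± 0.29 and 1.52 ± 0.34 SE (adjusted p = 0.00697 and 0.0491). Of 13 tested genes of p53 and apoptosis, PMAIP1, which promotes cell death, and CFLAR, which inhibits it, rose on the log2 scale by 2.07 ± 0.33 and 1.02 ± 0.21 SE (adjusted p = 0.0166 and 0.036). Of these 10 called genes, none kept the call in all 9 fits that each left out 1 library, and CALR and FTH1 lost it in all 9. The calls lost numbered 10, 8 and 9 without border zone replicates 1, 2 and 3 in turn (adjusted p 0.0512 to 0.208). There were 7, 6 and 6 without healthy replicates 1, 2 and 3 in turn (adjusted p 0.0565 to 0.176) and 5, 3 and 4 without ischemic replicates 1, 2 and 3 in turn (adjusted p 0.0513 to 0.087). MYC, BTG2, CALR, FTH1 and CFLAR did not pass without the pig block (adjusted p 0.0638 to 0.177). The count of 5 immediate early genes was 0 without border zone replicate 1, 1 without healthy replicate 1 or border zone replicate 2 or 3, 2 without healthy replicate 2, 3 without healthy replicate 3 or ischemic replicate 1 or 3 and 3 without the pig block. The unfolded protein count of 1 was 0 in all 9 fits without 1 library. The antioxidant count of 2 was 0 without border zone replicate 1 or 3 and 1 in each of the other fits. The apoptosis count of 2 was 0 without healthy replicate 3 or border zone replicate 1, 2 or 3, 1 without healthy replicate 1 or 2 or ischemic replicate 1 or 2 and 1 without the pig block.

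The 11 genes that fell include genes of fatty acid supply, energy sensing and calcium cycling in the heart. CD36, the fatty acid transporter of the muscle membrane (chr9:110040077-110102645), read 8.01, 6.2 and 6.48 RPKM in healthy tissue and 1.97, 3.07 and 2.13 in the border zone (log2 fold change -1.51 ± 0.31 SE, adjusted p = 0.0362). PRKAA2, the muscle catalytic subunit of the AMP-activated kinase (chr6:143547653-143572957), read 3.79, 4.0 and 3.03 RPKM in healthy tissue and 1.28, 2.15 and 1.44 in the border zone (log2 fold change -1.13 ± 0.20 SE, adjusted p = 0.0234). ATP2A2, the SERCA2 pump that returns calcium to the sarcoplasmic reticulum (chr14:33446619-33491489), read 18, 25.3 and 25.5 RPKM in healthy tissue and 7.81, 14.8 and 10.3 in the border zone (log2 fold change -1.08 ± 0.24 SE, adjusted p = 0.0447). PDE3A, a phosphodiesterase that limits cyclic AMP in heart muscle (chr5:55777634-55969591), read 12.7, 13.3 and 10.2 RPKM in healthy tissue and 4.34, 6.19 and 4.5 in the border zone (log2 fold change -1.26 ± 0.22 SE, adjusted p = 0.0234). In each of these 4 genes pig 2 had the highest border zone value. NDUFAB1, a mitochondrial acyl carrier protein that is also a complex I subunit, read 1.53, 2.15 and 1.38 RPKM in healthy tissue and 0.562, 1.11 and 0.456 in the border zone (log2 fold change -1.20 ± 0.27 SE, adjusted p = 0.0476). HOMER1, a scaffold protein at calcium signalling sites, read 2.0, 1.92 and 1.35 RPKM in healthy tissue and 0.627, 1.13 and 0.653 in the border zone (adjusted p = 0.0455). Other falls, beside LDHB above, were MASP1, a protease of the lectin complement pathway (log2 fold change -1.4 ± 0.25 SE, adjusted p = 0.0234), DPP4, a dipeptidyl peptidase (log2 fold change -1.23 ± 0.25 SE, adjusted p = 0.036), and a position listed as NM_213966, with no symbol (log2 fold change -1.19 ± 0.23 SE, adjusted p = 0.0286). The median listed span of the 11 genes was 48025 bp, against 12578 bp for the genes that rose and 12301 bp for all genes tested. All healthy values of each of the 11 genes lay above all border zone values. Of the 10 called genes named here, none kept the call in all 9 fits that each left out 1 library, and HOMER1 lost it in all 9. Calls that ended were 10, 10 and 10 without border zone replicates 1, 2 and 3 in turn (adjusted p 0.0609 to 0.209). Others lost were 10, 3 and 10 without healthy replicates 1, 2 and 3 in turn (adjusted p 0.0501 to 0.183) and 6, 2 and 2 without ischemic replicates 1, 2 and 3 in turn (adjusted p 0.052 to 0.0827). Without the pig block, MASP1, PDE3A, DPP4, NDUFAB1, LDHB, ATP2A2 and HOMER1 missed the threshold (adjusted p 0.0561 to 0.206).

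**Figure D3:**
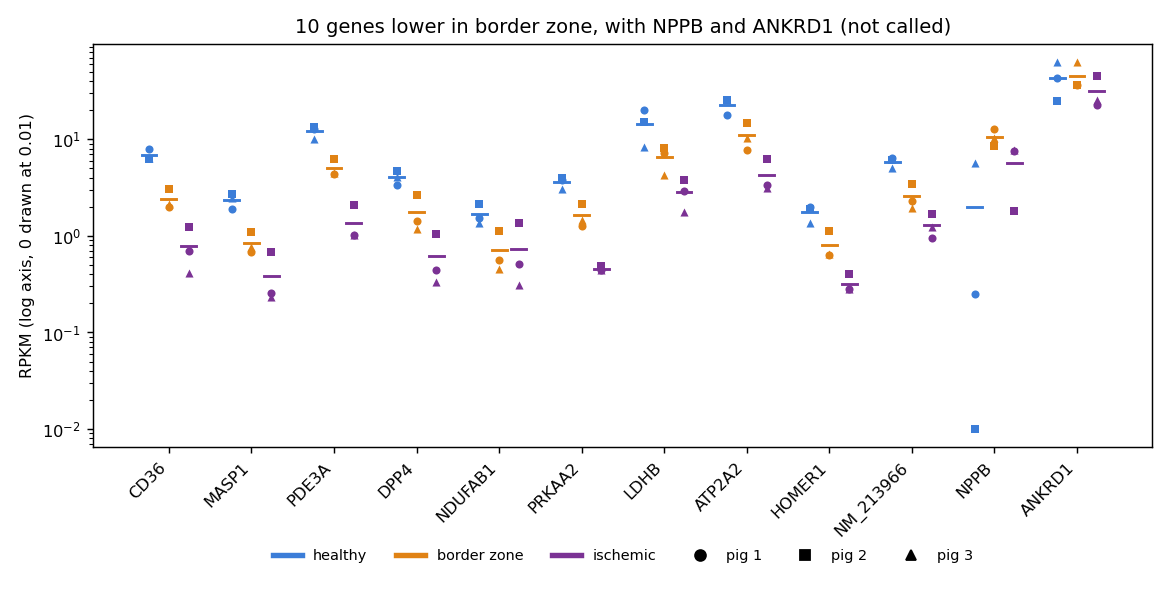
RPKM of 10 of the 11 called lower genes and of NPPB and ANKRD1, which were not called, in each of the 9 libraries (log axis, 0 drawn at 0.01, bars at group means). For the 10 lower genes the border zone libraries lie wholly below the healthy ones. The ischemic means lie below the border zone means except for NDUFAB1.

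Most genes of the contractile and metabolic lists were lower in the border zone in value without passing the test. Of 15 tested sarcomere and Z-disc genes 0 were called, 13 had a negative log2 fold change and 8 lay below the healthy group without overlap (6.89% of all genes), with a median of -0.79. At an unadjusted p under 0.05, 7 of them were lower and 1 higher, and limma-voom called 7 lower and 1 higher. MYH7, given above, missed the threshold (log2 fold change -1.19 ± 0.37 SE, adjusted p = 0.11), as did ACTN2, the alpha-actinin of the Z-disc (log2 fold change -0.95 ± 0.26 SE, adjusted p = 0.0866). TNNT2, cardiac troponin T, had an adjusted p of 0.326 (-0.68 ± 0.38 SE), and TCAP, telethonin, one of 0.121 (-0.94 ± 0.30 SE). Of 27 tested oxidative phosphorylation and citrate cycle genes 0 were called (unadjusted 8 lower and 0 higher, limma-voom 7 lower and 0 higher), and all 27 had a negative log2 fold change (median -0.61). ATP5A1, a subunit of ATP synthase, read 17.6, 13.2 and 8.57 RPKM in healthy tissue and 5.1, 10.2 and 3.62 in the border zone (log2 fold change -1.12 ± 0.33 SE, adjusted p = 0.0978), and its groups overlapped through pig 2. Of 20 tested fatty acid genes 1 fell, CD36 (median -0.62), and HADHA, which encodes part of the mitochondrial enzyme of long-chain fatty acid oxidation, missed the threshold (log2 fold change -1.08 ± 0.26 SE, adjusted p = 0.0597). Of 9 tested calcium, channel and coupling genes 1 fell, ATP2A2 (median -0.50, or -1.04 with quantile normalization). PLN, which encodes the SERCA inhibitor phospholamban, read 52.9, 40.2 and 55.2 RPKM in healthy tissue and 17.4, 26.6 and 20.6 in the border zone (log2 fold change -1.20 ± 0.44 SE, adjusted p = 0.158). GJA1, the gap junction protein connexin 43, read 24.6, 25.3 and 20.1 RPKM in healthy tissue and 12.4, 17.8 and 11 in the border zone (log2 fold change -0.78 ± 0.22 SE, adjusted p = 0.0917). Of 12 tested cardiac transcription regulators 0 were called (unadjusted 5 lower and 0 higher, limma-voom 4 lower and 0 higher), with a median of -0.67. GATA6, a factor of heart development, missed the threshold (log2 fold change -1.03 ± 0.28 SE, adjusted p = 0.0838). Without 1 library the adjusted p ran from 0.0266 to 0.177 for CD36, which kept the call in 3 of 9 such fits. For ATP2A2 it ran from 0.0462 to 0.203, with the call kept in 2.

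Genes of wall stress varied among healthy libraries. NPPB, the gene of B-type natriuretic peptide, read 0.249, 0 and 5.73 RPKM in healthy tissue and 12.8, 8.55 and 10.3 in the border zone (log2 fold change 4.16 ± 1.07 SE, adjusted p = 0.0774), with pig 3 high in healthy tissue. It passed without healthy replicate 3 (adjusted p = 0.0159) and with limma-voom (adjusted p = 0.0146). NPPA, the gene of the atrial peptide, read 1.98, 1.05 and 0.829 RPKM in healthy tissue and 9.66, 4.12 and 3.3 in the border zone (log2 fold change 1.99 ± 1.44 SE, adjusted p = 0.468), on 8 and 39 reads, and passed without ischemic replicate 2 (adjusted p = 0.0388). ANKRD1, a stretch-responsive muscle protein, read 43.6, 24.8 and 62.5 RPKM in healthy tissue and 36.3, 36.2 and 62.7 in the border zone (log2 fold change 0.09 ± 0.44 SE, adjusted p = 0.93), with overlapping groups, and its log2 fold change turned negative with median scaling and in some fits without 1 library. Of 14 tested genes of this list 2 rose and 0 fell, ADM as above and RCAN1, a calcineurin regulator. Over all genes tested 8.46% rose, and this small count is given as a description. RCAN1 read 1.71, 2.84 and 4.27 RPKM in healthy tissue and 3.59, 4.74 and 8.13 in the border zone (log2 fold change 0.89 ± 0.19 SE, adjusted p = 0.0388), and its groups overlapped. Among 2 called genes in this group, none kept the call in all 9 fits that each left out 1 library. Lost calls came to 2, 2 and 2 without border zone replicates 1, 2 and 3 in turn (adjusted p 0.10 to 0.201). Likewise lost were 2, 2 and 2 without healthy replicates 1, 2 and 3 in turn (adjusted p 0.0569 to 0.149) and 2, 2 and 2 without ischemic replicates 1, 2 and 3 in turn (adjusted p 0.0512 to 0.0665). A fit with no pig block lost RCAN1 and ADM (adjusted p 0.197 to 0.348). The list count of 2 was 0 without healthy replicate 1 or 2 or border zone replicate 1, 2 or 3 or ischemic replicate 1 or 3, 1 without healthy replicate 3 or ischemic replicate 2 and 0 without the pig block.

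**Figure D4:**
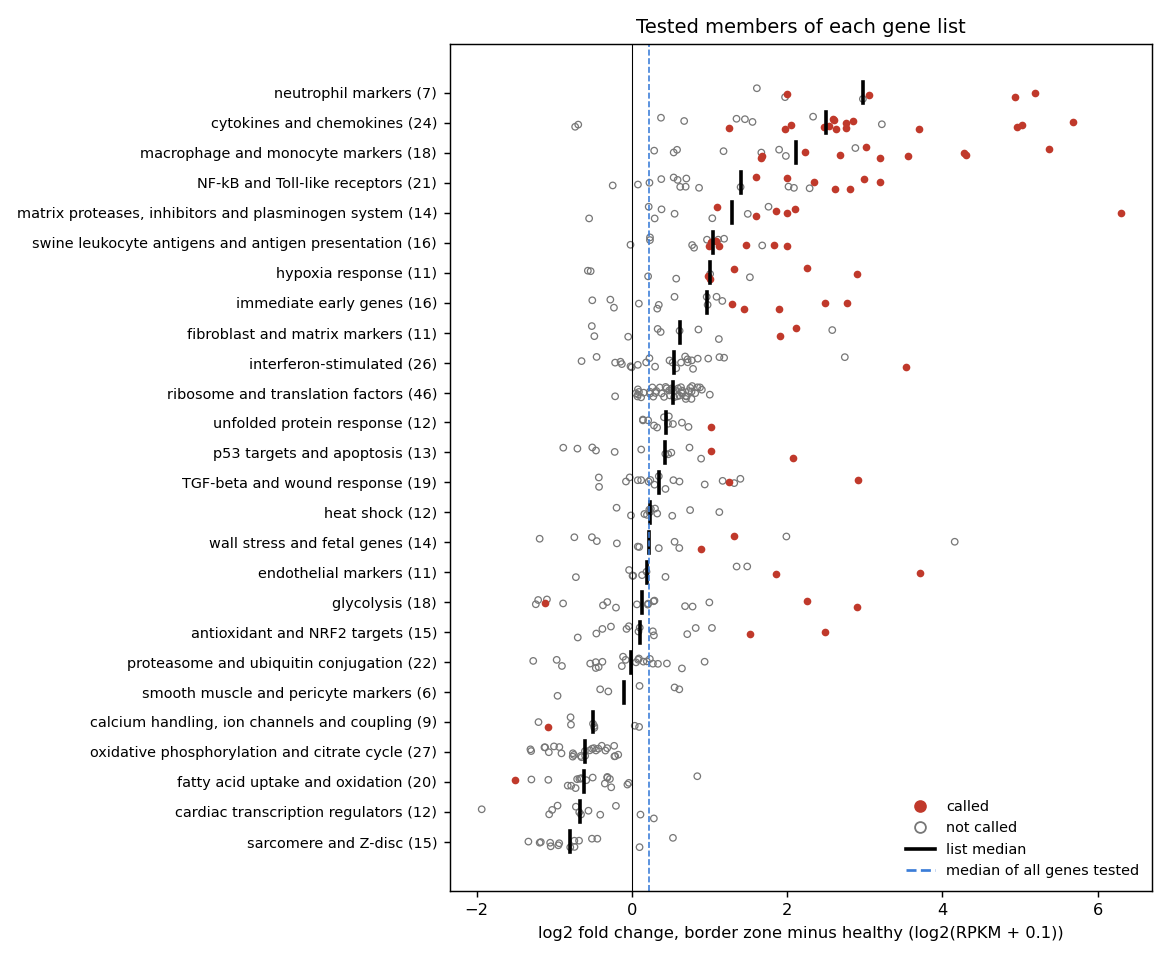
Log2 fold change of border zone against healthy (x axis) for the tested members of each gene list with at least 6 of them, microRNA loci left out (rows, with the number tested in brackets), called genes in red, others open, black bars at list medians and the dashed line at the median of all genes. Of the lists drawn, those of neutrophil, cytokine and macrophage genes have the highest medians, and those of sarcomere and cardiac regulator genes the lowest.

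In the other cell type lists 0 to 2 members each were called, where 8.46% of all genes tested rose. Of 11 tested endothelial markers 2 rose and 0 fell: THBD, the anticoagulant thrombomodulin (log2 fold change 3.71 ± 0.66 SE, adjusted p = 0.0235), and ICAM2, an adhesion molecule (log2 fold change 1.85 ± 0.28 SE, adjusted p = 0.0139). PECAM1, a general endothelial marker, read 2.63, 2.45 and 2.72 RPKM in healthy tissue and 3.24, 2.77 and 2.93 in the border zone (adjusted p = 0.543), and its small positive value turned negative with median scaling. Of 5 tested lymphocyte markers 1 rose, IL2RG, the common cytokine receptor chain, which myeloid cells also express (log2 fold change 2.32 ± 0.22 SE, adjusted p = 0.00471), and the T cell marker CD2 was not called (log2 fold change 1.22 ± 0.53 SE, adjusted p = 0.221). The endothelial count of 2 was 0 without healthy replicate 1 or 3 or border zone replicate 1, 2 or 3, 1 without ischemic replicate 1 and 1 without the pig block. The lymphocyte count of 1 was 0 without border zone replicate 1. Of 26 tested interferon-stimulated genes 1 rose, IRF8, a transcription factor of macrophages and dendritic cells (log2 fold change 3.53 ± 0.54 SE, adjusted p = 0.0144). MX1, a classic interferon target, missed the threshold (log2 fold change 0.85 ± 0.20 SE, adjusted p = 0.0567). Of 11 tested fibroblast and matrix markers 2 rose, VCAN and TNC as above. The interferon count of 1 was 0 without healthy replicate 1 or 3 or border zone replicate 1, 2 or 3. The fibroblast count of 2 was 0 without healthy replicate 1 or 3 or border zone replicate 1 or 3 and 1 without healthy replicate 2 or border zone replicate 2 or ischemic replicate 1, 2 or 3. No call was made among 12 heat shock genes, 46 ribosome and translation genes, 22 proteasome genes and 6 smooth muscle and pericyte markers. In those lists an unadjusted p under 0.05 was met by 3, 10, 0 and 1 genes on the higher side and 0, 0, 1 and 1 on the lower side, and limma-voom called 1, 5, 0 and 0 higher and 0, 0, 1 and 1 lower. Of these 4 called genes, none kept the call in all 9 fits that each left out 1 library. The threshold was missed by 4, 3 and 3 without border zone replicates 1, 2 and 3 in turn (adjusted p 0.051 to 0.121). Also ended were 3 and 3 without healthy replicates 1 and 3 in turn (adjusted p 0.0565 to 0.117) and 1 without ischemic replicate 1 (adjusted p 0.052). ICAM2 did not pass without the pig block (adjusted p 0.0925).

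The size of the difference varied among the animals. Over the 178 higher genes the median log2 difference within a pig was 2.10 in pig 1, 1.70 in pig 2 and 2.05 in pig 3, and pig 2 had the smallest rise for 109 of them. Over the 11 lower genes the medians were -1.45, -0.86 and -1.29, and pig 2 had the smallest fall for all 11. Border zone replicate 2, the library of pig 2 closest to healthy tissue, was also the deepest of the 9. With 3 pairs an exact sign-flip permutation test of 1 gene cannot go below a two-sided p of 0.25.

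**Figure D5:**
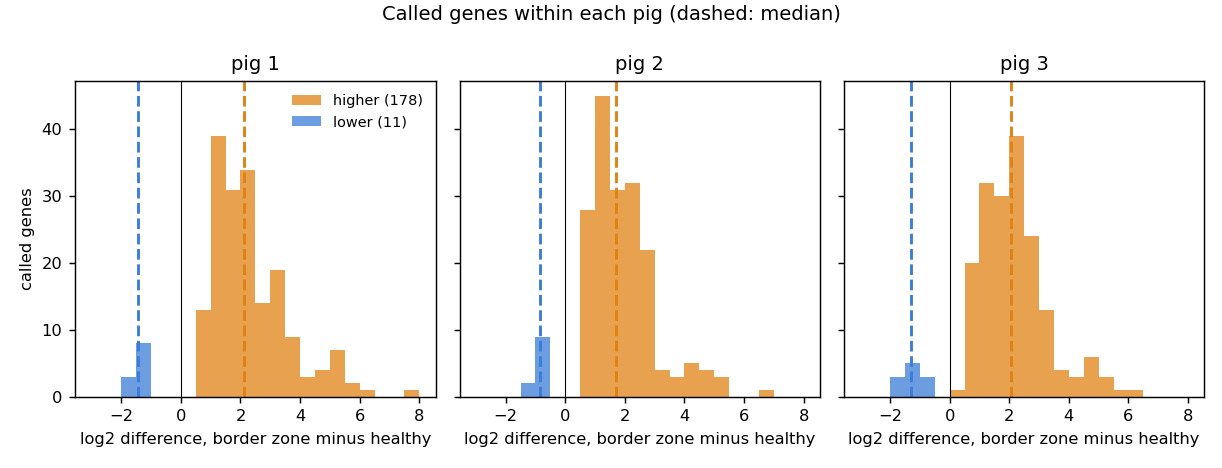
Number of called genes (y axis) by log2 difference of border zone and healthy library (x axis) within each pig, with higher genes in orange, lower genes in blue and dashed medians. The medians of both sets lie nearest to 0 in pig 2.

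In ischemic tissue most of the same genes had means further from healthy tissue. The ischemic mean exceeded the border zone mean for 138 of the 178 higher genes and lay below it for 10 of the 11 lower genes. Both comparisons use the border zone libraries, so these counts are given as a description. The matching shares over all genes tested were not counted, and 90 of the 178 passed the filter only through the injured zones. In the ischemic against border zone contrast of the same fit 5 genes were higher (0.238%) and 21 lower (0.998%), 1.24% in all. PTGS2 was higher again in ischemic tissue, at 5.5, 5.85 and 4.43 RPKM (log2 fold change against border zone 1.5 ± 0.23 SE, adjusted p = 0.049). PDE3A and PRKAA2 were lower again, at 1.01, 2.08 and 1.03 and 0.444, 0.485 and 0.447 RPKM (adjusted p = 0.0374 for both). IL1B, at 30.7, 11.4 and 13.9 RPKM in ischemic tissue, was not called against the border zone (log2 fold change 0.12 ± 0.30 SE, adjusted p = 0.857), nor was AREG (-0.08 ± 0.31 SE, adjusted p = 0.915). HBB, the beta globin gene of red cell precursors, was not called in the border zone (log2 fold change -0.73 ± 0.46 SE, adjusted p = 0.392) but was higher in ischemic tissue than there (66.3, 40.4 and 19.8 against 3.36, 8.74 and 1.45 RPKM, adjusted p = 0.0374). Of the 4 genes called in both contrasts, PTGS2, PDE3A, PRKAA2 and MIR103-2, the number left was 0 without healthy replicate 1, 2 or 3, 0 without border zone replicate 1 or 3, 1 without border zone replicate 2, 0 without ischemic replicate 1 or 3 and 2 without ischemic replicate 2.

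MicroRNA loci, the non-coding genes most often listed in the table, had few reads. The table lists 137 loci. Tested were 55, 33 of these with fewer than 10 reads over the 6 libraries, and 1 was called (6 at an unadjusted p under 0.05, 3 by limma-voom). MIR103-2 had 10, 2 and 5 reads in the border zone and none in healthy or ischemic libraries (at least 5.64-fold higher than healthy, adjusted p = 0.00559). That bound was 2.74-fold without healthy replicate 3, 3.22-fold without border zone replicate 1 and 11.1-fold without border zone replicate 2. MIR21, a microRNA known to rise in injured tissue, had 1, 0 and 0 reads in healthy tissue and 5, 29 and 9 in the border zone, a ratio of 42.8 (exact 95% counting interval 7.28 to 1730), and was not called (adjusted p = 0.192). Leaving out healthy replicate 3 gave a ratio of 20.8. With healthy replicate 1 left out MIR21 was at least 11.2-fold higher. MIR208B, hosted by MYH7, had 19, 15 and 64 reads in healthy tissue and 16, 25 and 7 in the border zone (adjusted p = 0.796). MIR1, a muscle microRNA, had 4, 10 and 20 reads in healthy tissue and 1, 30 and 1 in the border zone (adjusted p = 0.298). Most MIR1 reads of the border zone came from pig 2, and without border zone replicate 2 MIR1 passed on the lower side (adjusted p = 0.033). Run-on reads over a locus come from its primary transcript, so they do not measure the mature microRNA. The call of MIR103-2 was lost without border zone replicate 1 (adjusted p = 0.0657) or 3 (adjusted p = 0.0619).

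Several called genes lay near each other. Within gaps of at most 250000 bp, 13 groups of called genes were found, all of them higher, as were 178 of the 189 called genes. How many such groups would form among genes drawn from all those tested was not counted. IL1B2, IL1B and IL1A span chr3:45179378-45465557, and CXCL8, AMCF-II and CXCL2 span chr8:74083530-74311985, with 4 tested genes in that stretch. The chemokine receptor genes XCR1, CCR1 and CCR2 span chr13:32248986-32538394. The remaining groups include CCL3L1 with CCL5 on chromosome 12 and the antigen genes SLA-DRB1, SLA-DQA1 and SLA-DQB1 on chromosome 7. HBEGF and CD14 on chromosome 2 form another group, with 5 tested genes in that stretch, of which 2 were called. Read-through between neighbours and reads shared by similar copies were not tested.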

How the data were processed

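GRO-seq was done on 9 libraries from 3 pigs. The authors deposited RPKM values per gene position on susScr3. Per the submitters' processing notes Bowtie was used, and its version and the counting settings are not stated in those notes. RPKM × span × library total gave whole reads within 0.01 for 100.0% of nonzero values. Positions with a mean RPKM of at least 0.5 were fitted with limma 3.58.1 in R 4.3.3 on log2(RPKM + 0.1) (trend and robust), with zone and pig as terms. All 2-sided tests were adjusted by Benjamini-Hochberg. Fold changes of low genes can be understated on this scale, as for FCN1 (15.8-fold against a read ratio of 129). For short loci with few reads they can be overstated, as for MIR21 (92-fold against a read ratio of 42.8). The pig block was used because same-numbered libraries come from the same animal per the labels. Deviations of same-pig healthy and border zone libraries correlated at -0.0177 to 0.15, and those of other pairs at -0.126 to 0.0698. The script was tested on simulated data with a set spread. Of 50 simulated 4-fold rises 20 were called, and of 50 4-fold falls 8 were. For simulated 2-fold changes, 0 of 50 rises and 0 of 50 falls were called. A missing call therefore does not show that a gene was unchanged. Intervals and floors cover counting error only.

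The members and lists were chosen with earlier results of these data known. Of 4882 listed identifiers 4793 matched a symbol table. Genes named were the 15 largest called rises and falls with 1 sign in all pigs and at least 10 reads, up to 4 called and 2 uncalled members per list, 18 preset genes, the microRNA loci tested and called non-coding genes. Of 187 genes under this rule, 100 (51 of them microRNA loci) are counted in the totals but not described. Another 28 genes fall outside the rule and were chosen after their values were seen: ACTN2, ADGRE5, ATP2B1, ATP5A1, BTG2, CCR2, CDA, CXCL2, GP91-PHOX, HADHA, HTR7, ICAM1, IL10, IL1R2, KMO, MX1, MYD88, NCF1, NLRP3, P4HA1, PFKM, PLAT, PTGS2, RGS2, SYK, TIMP2, TNNT2 and VDR. Of the 189 called genes 84 are given with values. TAGAP and the neighbouring genes given only by name were also chosen after their values were seen. The alternatives were the block, samples in the fit, pseudocount, filter, position per gene, scaling, limma-voom and leaving out each library.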

Additional observations from a re-analysis of the deposited data

How the results depend on the processing

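The number of genes called, 189, ranged from 17 to 180 when 1 library was left out (17 to 172 higher, 0 to 15 lower). With the 6 libraries alone and the replicate block it was 102 (101 higher, 1 lower), without the block 120 (115 higher, 5 lower), and with all 9 libraries and no block 133 (130 higher, 3 lower), so the block moved the falls from 3 to 11. A pseudocount of 1 gave 132 higher and 21 lower genes, and one of 0.01 gave 173 and 10. A filter at a mean of 2 RPKM gave 107 (99 higher, 8 lower), and no filter 153 and 5. Median scaling gave 120 higher and 28 lower, quantile normalization 99 and 28, and limma-voom 463 (369 higher, 94 lower). The causes of these moves were not tested, except that fewer samples or positions entered some fits. Called genes in a list, 69, became 45 with the 6 libraries and the block, 161 with limma-voom, and ranged from 13 to 65 without 1 library. Called microRNA loci, 1, were 2 with the 6 libraries with or without the block, with a filter of 2 RPKM and with 1 position per gene, 3 with limma-voom, and 0 to 3 without 1 library. Of the called genes, 4 also passed in ischemic against border zone tissue, 2 with a pseudocount of 1, 0 with no filter, 26 with limma-voom, and 0 to 2 without 1 library. Signs turned for genes that were not called: the log2 fold change was for ANKRD1 -0.164 with median scaling and from -0.35 to 0.33 without 1 library, for PECAM1 -0.070 with median scaling, for MIR208B from -2.03 to 0.18 without 1 library. The shares of small read counts (up to 30) that are multiples of 3 were 34.1% to 51.1%, against 33.3% for an even spread, and whether recovered reads are independent molecules was not tested. Depth limits low genes most: 90 of 178 higher genes had a healthy mean under 0.5 RPKM.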

Other observations

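Of the 178 higher genes, 112 belong to none of the lists. Examples chosen after their values were seen include signalling and transport genes. RGS2, a brake on G protein signalling, read 4.06, 2.61 and 8.53 RPKM in healthy tissue and 16.8, 15.6 and 39.4 in the border zone (log2 fold change 2.25 ± 0.29 SE, adjusted p = 0.00933). ATP2B1, a calcium pump of the cell membrane, read 0.712, 0.526 and 0.652 RPKM in healthy tissue and 2.06, 1.51 and 2.04 in the border zone (log2 fold change 1.43 ± 0.16 SE, adjusted p = 0.00559), while the pump ATP2A2 fell. HTR7, a serotonin receptor, read 0.0786, 0.125 and 0.104 RPKM in healthy tissue and 0.741, 0.632 and 1.23 in the border zone (log2 fold change 2.21 ± 0.30 SE, adjusted p = 0.0111). VDR, the vitamin D receptor, read 0.0556, 0.0493 and 0.0491 RPKM in healthy tissue and 2.11, 0.636 and 0.702 in the border zone (log2 fold change 2.85 ± 0.40 SE, adjusted p = 0.0113), with pig 1 far above the other two. Enzymes include KMO, a kynurenine hydroxylase (log2 fold change 2.17 ± 0.27 SE, adjusted p = 0.0078), and CDA, cytidine deaminase (log2 fold change 3.42 ± 0.26 SE, adjusted p = 0.00185). ADGRE5, the leukocyte receptor CD97, rose on the log2 scale by 2.50 ± 0.24 SE (adjusted p = 0.00471) and SYK, an immune receptor kinase, by 3.08 ± 0.50 SE (adjusted p = 0.0179). Like the summed macrophage list given above, these genes were higher in the border zone in all 3 pigs. Whether their levels follow that list was not tested. Among 8 called genes in this group, CDA kept the call in all 9 fits that each left out 1 library. The calls lost numbered 7, 4 and 6 without border zone replicates 1, 2 and 3 in turn (adjusted p 0.0504 to 0.102). There were 1 and 1 without healthy replicates 1 and 3 in turn (adjusted p 0.0516 to 0.0633).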
